A study of Mus musculus with 18 samples.

Results

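The genes that write, copy and erase DNA methylation, apart from Tet1 itself, were followed through the H3K4me3 peaks of fetal male germ cells. The 8 genes, Dnmt1, Uhrf1, Dnmt3a, Dnmt3b, Dnmt3l, Tet2, Tet3 and Tdg, were listed by name, with earlier results of these data known. They are 8 of 21883 coding genes of the RefSeq table on the autosomes, X and Y. All deposited peaks over each gene and 5 kb on either side were used, and the measurement is the covered length, the number of bp in such a window that lie under at least 1 peak of a library. Merging the peaks of all libraries where they overlapped or touched gave 56 regions over the 8 genes, of 186550 in the genome.

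H3K4me3, the histone mark found at promoters that are active or poised, was mapped by CUT&RUN, where an antibody tethers a nuclease that cuts out the chromatin around the mark. The nuclei were from prospermatogonia, the fetal male germ cells that leave the cell cycle and regain DNA methylation before birth, taken at E17.5 as Oct4-GFP+ cells and stored frozen, with 4000 nuclei per library. There were 3 genotypes with 3 H3K4me3 libraries each: wild type (WT, Tet1+/+), knockout (KO, Tet1-/-) and Tet1HxD/HxD (HxD), which changes the HxD motif of the catalytic site and is known to abolish oxidation. The question in the series title is what TET1 does to chromatin in the male germline apart from catalysis. All libraries had the same batch label and all groups the Oct4-GFP selection. The labels call the 3 libraries of a genotype biological replicates and do not say how the alleles were made or how many embryos gave each library. The series held 18 samples, and the 9 IgG samples were not used here.

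DNA methylation in mammals is copied after replication by DNMT1, which UHRF1 brings to half-methylated sites. New methylation is set by DNMT3A and DNMT3B with DNMT3L, a family member without catalytic activity that in male germ cells is needed for methylation of transposons and imprinted regions. TET enzymes oxidise 5-methylcytosine, and TDG, a DNA glycosylase, removes the later oxidation products so that base excision repair can restore cytosine. Several of these genes are read from more than 1 promoter: Dnmt1 has an upstream start used in the oocyte, Dnmt3a an internal start for a shorter protein that is common in germ cells, and Dnmt3l separate starts in male and female germ cells.

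The RefSeq promoter table (GRCm38.p6, the assembly of the mm10 peaks) listed 15 starts for the 8 genes, 3 each for Dnmt1, Dnmt3a and Dnmt3l, 2 for Uhrf1 and 1 for each of the others. Starts are numbered in the direction of transcription. The 250 bases before the starts are printed for the 3 genes in which marked and unmarked starts, or an internal start, can be compared. Every sequence is written 5′ to 3′ on the strand of the gene, with each CpG in capitals. For Dnmt1 these are start 1 (chr9:20959889-20960138, minus strand) and start 2 (chr9:20952980-20953229, minus strand). For Dnmt3a they are start 1 (chr12:3806730-3806979, plus strand) and the internal start 3 (chr12:3891494-3891743, plus strand). For Dnmt3l they are start 1 (chr10:78042037-78042286), start 2 (chr10:78049592-78049841) and start 3 (chr10:78055085-78055334), all on the plus strand.
Dnmt1 start 1: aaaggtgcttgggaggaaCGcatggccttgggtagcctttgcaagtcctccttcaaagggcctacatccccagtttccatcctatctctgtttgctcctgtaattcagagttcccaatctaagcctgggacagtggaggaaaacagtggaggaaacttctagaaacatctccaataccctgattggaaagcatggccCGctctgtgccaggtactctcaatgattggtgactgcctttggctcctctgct
Dnmt1 start 2: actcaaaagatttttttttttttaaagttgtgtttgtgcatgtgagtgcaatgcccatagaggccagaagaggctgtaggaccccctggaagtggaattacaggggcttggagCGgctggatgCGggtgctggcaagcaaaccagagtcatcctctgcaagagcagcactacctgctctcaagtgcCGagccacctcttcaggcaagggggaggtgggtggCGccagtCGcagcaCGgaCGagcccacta
Dnmt3a start 1: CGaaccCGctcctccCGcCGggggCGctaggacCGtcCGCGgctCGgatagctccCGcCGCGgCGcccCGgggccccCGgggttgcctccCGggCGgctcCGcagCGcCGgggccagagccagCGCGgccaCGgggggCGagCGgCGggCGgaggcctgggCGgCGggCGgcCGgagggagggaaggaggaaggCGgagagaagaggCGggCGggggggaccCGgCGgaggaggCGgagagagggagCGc
Dnmt3a start 3: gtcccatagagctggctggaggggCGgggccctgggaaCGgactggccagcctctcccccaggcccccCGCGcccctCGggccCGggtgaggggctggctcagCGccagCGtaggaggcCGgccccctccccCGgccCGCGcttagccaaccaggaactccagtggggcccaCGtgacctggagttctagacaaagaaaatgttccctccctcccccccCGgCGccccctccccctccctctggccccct
Dnmt3l start 1: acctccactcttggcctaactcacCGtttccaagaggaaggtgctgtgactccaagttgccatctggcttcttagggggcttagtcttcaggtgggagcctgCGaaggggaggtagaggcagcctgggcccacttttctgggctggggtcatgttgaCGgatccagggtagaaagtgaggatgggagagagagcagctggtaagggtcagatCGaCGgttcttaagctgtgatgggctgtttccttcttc
Dnmt3l start 2: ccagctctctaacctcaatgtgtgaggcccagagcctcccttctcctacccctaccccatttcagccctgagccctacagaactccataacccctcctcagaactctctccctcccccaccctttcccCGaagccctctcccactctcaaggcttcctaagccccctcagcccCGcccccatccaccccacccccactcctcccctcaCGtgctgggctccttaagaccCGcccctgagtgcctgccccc
Dnmt3l start 3: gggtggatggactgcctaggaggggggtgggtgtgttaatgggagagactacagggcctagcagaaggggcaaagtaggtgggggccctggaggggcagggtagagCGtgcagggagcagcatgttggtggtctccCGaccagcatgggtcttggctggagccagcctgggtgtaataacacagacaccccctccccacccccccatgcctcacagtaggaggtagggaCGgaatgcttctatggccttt

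These stretches differ widely in CpG, the dinucleotide that the encoded enzymes act on. Dnmt3a start 1 had 38 CpG in 250 bases and its internal start 15, whereas the Dnmt3l starts had 5, 4 and 3 and Dnmt1 start 1 had 2. Dnmt1 start 2 had 7, and Dnmt1 start 3 had 26; these starts lie 6909 and 7265 bp into the gene from start 1. Tet2 had the most of the 15 starts, with 51 CpG, more than 99.9% of all listed starts of coding genes. Tdg had 19, Tet3 17, Dnmt3b 21, and the Uhrf1 starts 10 and 30. The letters GGGCGG, or CCGCCC on the other strand, were found before 10 of the 15 starts and before 42.6% of all 21262 listed starts of coding genes. The match is to these letters alone.

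A peak lay within 250 bp of the start in all 9 libraries for 11 of the 15 starts, against 46.9% of all listed starts. The 4 others were Dnmt1 start 1, with a peak there in 2 libraries, Dnmt1 start 2, with 7, and Dnmt3l starts 1 and 3, with 1 each. Of all 4801 listed starts with 0 to 2 CpG, 2.94% had a peak in all 9 libraries and 82.3% in none, and of the 3235 with 3 to 5 CpG, 17.4% had one in all 9 and 47.9% in none. From 10 CpG upward the share in all 9 was 71.6% to 77.5%. Dnmt3l start 2 therefore belongs with the 17.4% of starts of its CpG class that were marked in every library, while starts 1 and 3 of the gene, with 5 and 3 CpG, were each marked in 1. Members' starts with 10 or more CpG were marked in all 9 libraries without exception.

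**Figure D1:**
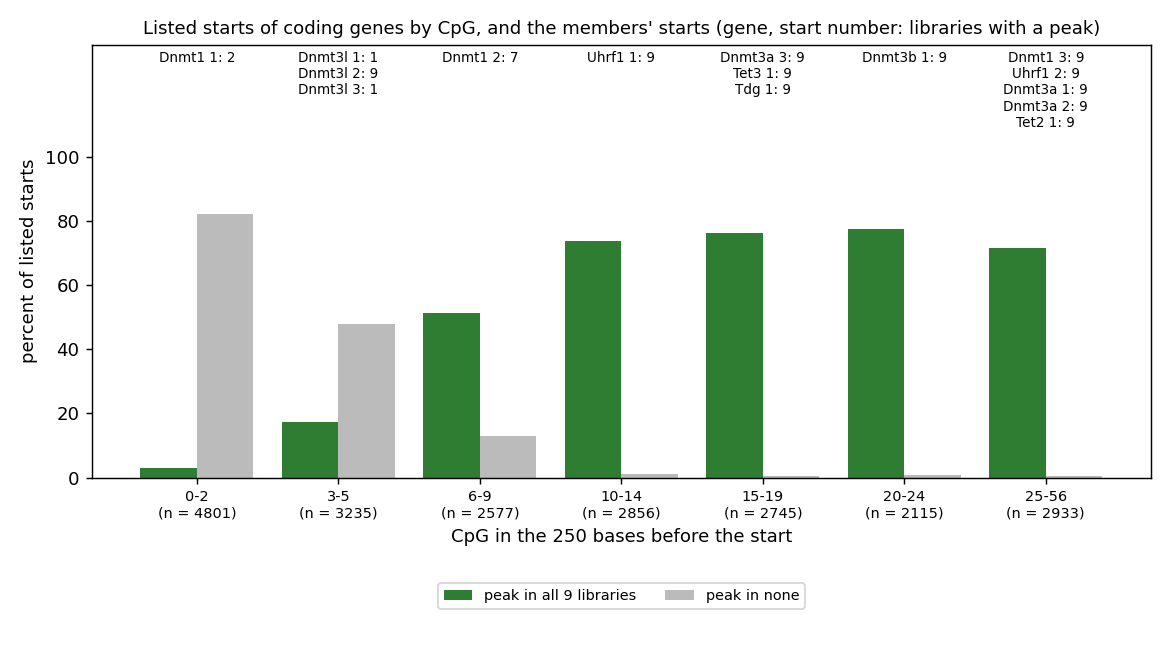
Percent of listed starts of coding genes with an H3K4me3 peak within 250 bp in all 9 libraries (green bars) and in none (grey bars), by the number of CpG in the 250 bases before the start (n, starts per class). The 15 starts of the 8 genes are written above their class with the number of libraries that had a peak: Dnmt3l start 2 has 9 in a class where 17.4% of starts are marked in all 9, and Dnmt1 start 1 has 2.

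The lists behind these values differed in length. WT lists held 83586 to 128701 peaks covering 76.6 to 108.9 Mb, KO lists 69901 to 80232 peaks covering 50.5 to 73.0 Mb, and HxD lists 49624 to 67925 peaks covering 45.6 to 69.3 Mb. WT replicate 3 had the longest list and KO replicate 1 the shortest peaks, with a median of 433 bp against 641 to 793 bp in the others. Peak lists hold no read counts, so depth is not known from them, and list length and genotype cannot be told apart in the covered bp. The targeted gene, Tet1, averaged 5884 ± 1001 bp under peaks in its window in WT, 6067 ± 2207 bp in the knockout and 5186 ± 1559 bp in the HxD group (SD, n = 3 each), which does not check the labels, since a promoter can keep its mark when the coding part is altered. Of the germ cell markers with a listed start, Ddx4, Dazl, Pou5f1 and Tdrd1 had a peak within 1 kb in all 9 libraries. Nanos2 had a peak there in 5 libraries, Nanos3 in 4 and Mael in 6. Of all 7 such genes each WT library had 4 to 6 marked, each KO library 5 to 7 and each HxD library 4 to 7. Markers of other testis cells were marked too. In all 9 libraries these were 2 of 3 Sertoli genes (Dhh and Cldn11) and 4 of 6 Leydig or interstitial genes (Insl3, Col1a2, Pdgfra and Acta2). Of the endothelial or blood genes, 2 of 5 (Kdr and Tek) were marked in all 9. Over libraries the counts were 3 in WT, 3 in KO and 2 to 3 in HxD for Sertoli genes, 4 to 5, 5 and 5 for Leydig or interstitial genes, and 2 to 4, 2 to 3 and 2 for endothelial or blood genes. The blood marker Ptprc and the steroid enzyme gene Hsd3b1 had no peak in any library. The mark can be present at silent promoters, and the part of other cells in the results was not tested.

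No gene window of the 8 passed the test in any of the 3 contrasts (limma on covered bp over 18466 genes, Benjamini-Hochberg adjustment, threshold 0.05). Of all genes tested, 2.11% passed in KO against WT, 2.93% in HxD against WT and 0% in KO against HxD. In KO against WT, 4 of the 8 differences were below 0 and 4 above, with a median of 159 bp beside −95.7 bp over all genes. In HxD against WT, 5 were below 0 and 3 above, with a median of −302.5 bp beside −370.5 bp over all genes. At an unadjusted p under 0.05 none of the 8 passed in KO against WT, and 1, Dnmt3l, in HxD against WT, beside 17.6% and 18.7% of all genes. The smallest adjusted p was 0.381 in KO, for Dnmt1, and 0.135 in HxD, for Dnmt3l. On simulated KO and WT libraries with 200 changed gene windows, the same test recovered 0% of those that had lost 1000 bp. It recovered 19% of those that had lost 2000 bp. The simulation changed fewer windows than passed in the real data, so it gives no detection limit for the real data. Over all genes the passing windows were 371 lower and 19 higher in KO, a split that was 749 and 836 after centring each library on its mean and 159 and 368 with lists of equal length. In HxD they were 537 lower and 4 higher, and 570 and 423 after centring and 36 and 20 with lists of equal length.

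**Figure D2:**
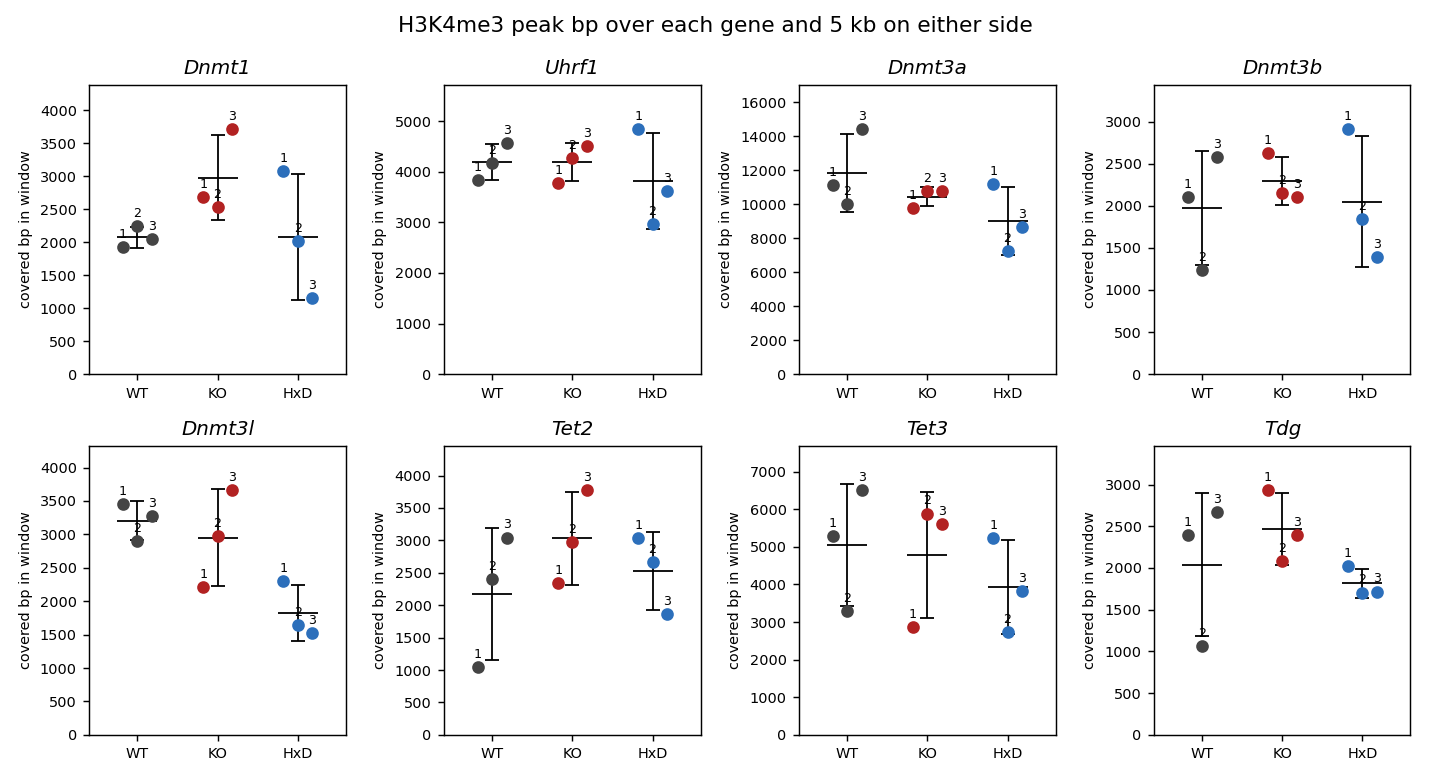
Covered bp of H3K4me3 peaks in the window of each of the 8 genes (gene and 5 kb on either side) in each library, numbered by replicate, with the mean (horizontal bar) and SD (error bar) of 3 libraries per genotype. The 3 KO libraries sit above the 3 WT libraries for Dnmt1, and the 3 HxD libraries below them for Dnmt3l; in the other panels against WT the groups overlap.

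As a share of window length, which allows the genes to be compared, coverage in WT ran from 13.9% ± 1.19 for Uhrf1 to 2.37% ± 1.11 for Tet2 (SD, n = 3). Between them came Dnmt3l with 10.2% ± 0.911, Dnmt3a with 9.65% ± 1.87, Tdg with 6.59% ± 2.78, Tet3 with 4.81% ± 1.55, Dnmt3b with 4.09% ± 1.41 and Dnmt1 with 3.31% ± 0.257. Uhrf1 lay above Dnmt3l in every WT library, and every other pair of neighbours in that order overlapped. These shares include peaks of neighbouring genes. Of the 4193 ± 359 bp of Uhrf1 in WT, 1711 ± 285 bp lay in a region past the gene end, described below. The region at the Uhrf1 starts had 2483 ± 75.6 bp. In HxD the share for Dnmt3l was 5.82% ± 1.33, close to that for Tdg, 5.86% ± 0.576. Long genes with 1 marked promoter have low shares by construction, since most of the window is gene body.

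Of the maintenance pair, Dnmt1 (chromosome 9, 20907206 to 20959888, minus strand) had the larger difference in KO. Its window had 1931, 2248 and 2042 bp under peaks in WT replicates 1 to 3, 2691, 2534 and 3716 bp in KO and 3073, 2015 and 1160 bp in HxD. All KO libraries were above all WT libraries, as in 6.6% of all genes tested, while the HxD libraries spread over both sides of WT. The difference was 907 ± 517 bp (SE) for KO against WT (limma adjusted p = 0.381) and 9 ± 517 bp for HxD against WT (adjusted p = 0.996). Most of the mark lay at starts 2 and 3, in a region 5963 to 8930 bp into the gene from start 1 (chromosome 9, 20950958 to 20953925). That region had a peak in every library, with 1467, 1871 and 1763 bp in WT, 2064, 1835 and 2635 bp in KO and 2421, 2015 and 1160 bp in HxD. It differed by 478 ± 350 bp in KO (adjusted p = 0.376 over 81071 regions) and 165 ± 350 bp in HxD (0.775), and the groups overlapped.

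Around start 1 of Dnmt1, printed above with 2 CpG, peaks were short and present in some libraries only. A region 789 to 1529 bp into the gene had 464, 377 and 0 bp in WT, 0, 430 and 485 bp in KO and 652, 0 and 0 bp in HxD. No library had a peak over the base of start 1, against 6 for start 2 and 8 for start 3. Beside start 2 the peaks reached further into the gene than upstream in 9 of 9 libraries, with 1461 ± 288 bp in the 2 kb downstream and 451 ± 256 bp in the 2 kb upstream (SD over 9 libraries). Start 3 lies within that downstream stretch, so these values do not belong to start 2 alone. Beside start 3 they were 1219 ± 230 bp downstream and 696 ± 379 bp upstream, with more downstream in 8 of 9 libraries. The remaining 5 regions over Dnmt1 were in 1 or 2 libraries each. Their peaks had 337 and 290 bp in KO replicate 1, 269 bp in KO replicate 2 and 315 and 281 bp in KO replicate 3. WT replicate 3 had 279 bp there. The separation of KO from WT in the window values rests in part on these short peaks.

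Uhrf1 (chromosome 17, 56303337 to 56323486, plus strand), which recognises half-methylated CpG, had 3844, 4174 and 4562 bp in WT, 3778, 4279 and 4519 bp in KO and 4846, 2977 and 3622 bp in HxD. The WT and KO means were 4193 ± 359 and 4192 ± 378 bp (SD, n = 3). The differences were −1.33 ± 618 bp (SE) in KO (limma adjusted p = 0.999) and −378 ± 618 bp in HxD (0.807), and both were above 0 after centring or with lists of equal length. This window holds 2 regions with a peak in all 9 libraries, whose KO differences had opposite signs and did not pass. The region at the Uhrf1 starts (chromosome 17, 56302298 to 56305641) had 2402, 2494 and 2552 bp in WT, 2138, 2049 and 2226 bp in KO and 2838, 1349 and 2059 bp in HxD. Its 3 KO libraries were below the 3 WT libraries, as in 27.7% of all regions tested, and the difference was −345 ± 350 bp (limma adjusted p = 0.530). The other region lies past the gene end, at 56324591 to 56327505, and overlaps the neighbouring gene Kdm4b, a histone demethylase gene. It had 1442, 1680 and 2010 bp in WT, 1640, 2230 and 2293 bp in KO and 2008, 1628 and 1563 bp in HxD, so part of the Uhrf1 window value belongs to a neighbour. That region differed by 344 ± 296 bp in KO (limma adjusted p = 0.455) and 22.3 ± 296 bp in HxD (0.968), and the groups overlapped.

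Dnmt3a (chromosome 12, 3801559 to 3914443, plus strand), a de novo methyltransferase, had the most peaks of the 8 genes, in 21 regions. Its window had 11157, 9997 and 14434 bp in WT, 9795, 10773 and 10805 bp in KO and 11176, 7229 and 8647 bp in HxD. WT replicate 3 was the highest and HxD replicate 2 the lowest, and the groups overlapped. The sum was −1405 ± 1750 bp (SE) from WT in KO (limma adjusted p = 0.725) and −2845 ± 1750 bp in HxD (0.419). Counting only the 5 kb on either side of the 3 starts turned both differences to 805 bp in KO and 74 bp in HxD. Without WT replicate 3 the window differences were −119 bp in KO and −1560 bp in HxD, and with lists of equal length −33 and −1985 bp. Of the 21 regions, 12 were in 1 library, 6 of these in WT replicate 3, and they were short; 9 were in 3 or more libraries and 6 in all 9.

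At the upstream starts of Dnmt3a the genotypes were close. The region over starts 1 and 2 (chromosome 12, 3805524 to 3809285) had 3475, 3121 and 3299 bp in WT, 3152, 3055 and 3403 bp in KO and 3301, 2507 and 2831 bp in HxD. Neither mutant passed against WT (limma adjusted p = 0.873 and 0.424). The internal start, 84764 bp further along, lay in a region at 3890795 to 3893522. That region had more covered bp in every mutant library than in WT replicates 1 and 2. It had 1384, 968 and 2107 bp in WT, 2490, 2102 and 2029 bp in KO and 2297, 1853 and 1787 bp in HxD. WT replicate 3 overlapped both mutants. The difference was 721 ± 328 bp in KO (limma adjusted p = 0.160) and 493 ± 328 bp in HxD (adjusted p = 0.330). Under all alternatives the KO difference stayed above 0, from 462 to 1031 bp on the bp scale, with limma adjusted p from 0.0658 to 0.375.

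Between these starts, 4 regions with a peak in all 9 libraries lay inside the Dnmt3a gene model away from any listed start, and in each of them both mutant means were below the WT mean. The first, 18.0 to 19.5 kb from start 1 (chromosome 12, 3824972 to 3826478), had 1359, 809 and 1281 bp in WT, 305, 582 and 580 bp in KO and 1234, 464 and 1189 bp in HxD. Its KO libraries were all below its WT libraries, as in 27.7% of all regions tested. The difference of −661 ± 283 bp (SE) had limma adjusted p = 0.139. The second, at 26.2 to 28.6 kb (3833207 to 3835603), had 1746, 1445 and 2397 bp in WT, 720, 1639 and 1362 bp in KO and 1064, 615 and 1537 bp in HxD. It differed by −622 ± 345 bp in KO (adjusted p = 0.242) and −791 ± 345 bp in HxD (limma adjusted p = 0.155), with overlap in both.

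The next of these internal regions, at 42.1 to 44.3 kb (chromosome 12, 3849038 to 3851262), had 1250, 1434 and 1306 bp in WT, 1268, 966 and 1295 bp in KO and 929, 799 and 420 bp in HxD. All HxD libraries were below all WT libraries, as in 29.5% of all regions tested, with a difference of −614 ± 253 bp (limma adjusted p = 0.135). The KO difference from WT in that region was −154 ± 253 bp (limma adjusted p = 0.712). The last, at 63.6 to 65.4 kb (3870553 to 3872354), had 1200, 1419 and 1683 bp in WT, 457, 1421 and 1177 bp in KO and 1257, 991 and 572 bp in HxD (adjusted p = 0.380 and 0.299). Over all regions tested 77.4% of KO and 83.4% of HxD differences were below 0, so lower values in such regions were common. The gene table gives no exons, so these regions are given as inside the gene model without an exon or intron.

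**Figure D3:**
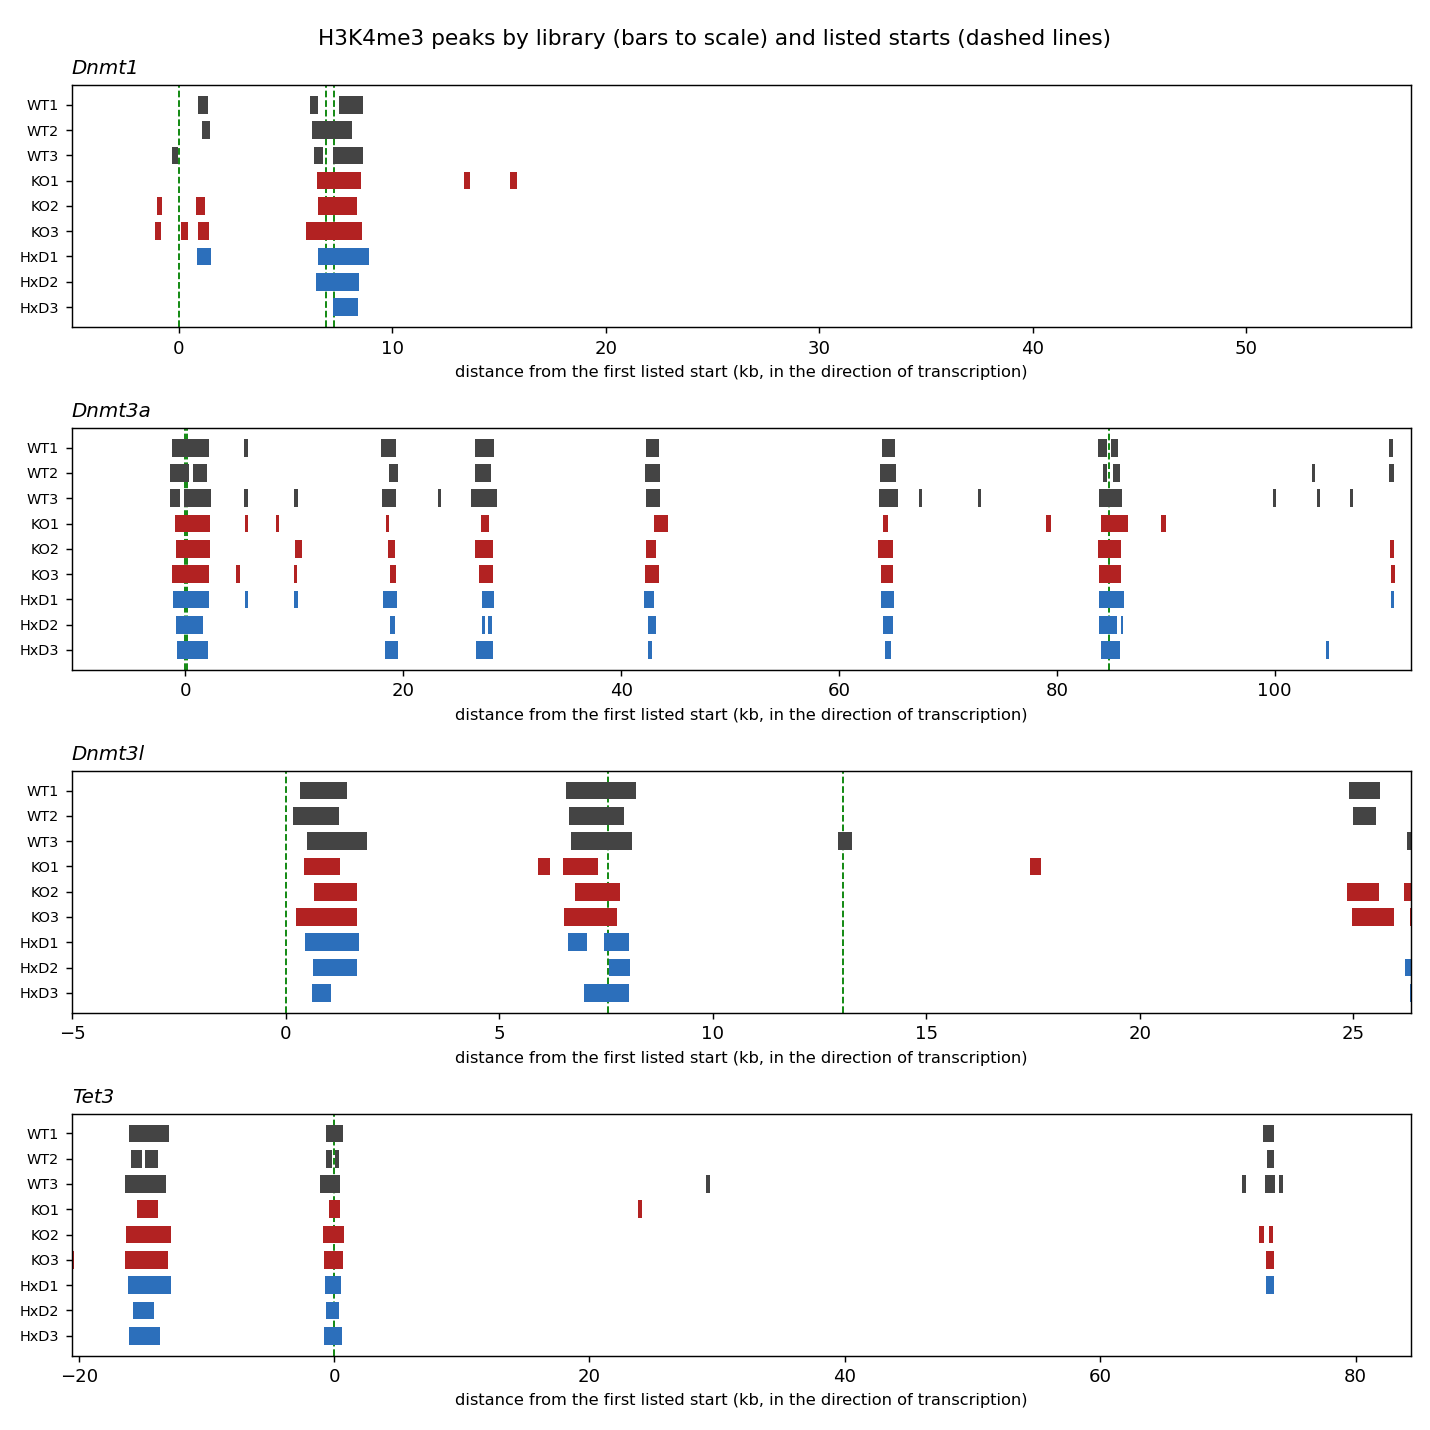
H3K4me3 peaks of the 9 libraries over Dnmt1, Dnmt3a, Dnmt3l and Tet3, each bar 1 peak drawn to scale by its distance in kb from the first listed start (WT grey, KO red, HxD blue), with listed starts as dashed green lines. Dnmt3a has 6 regions with a peak in every library, of which those at the first start and 84764 bp past it hold its starts, and Dnmt1 has its longest peaks at starts 2 and 3.

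Dnmt3b (chromosome 2, 153649411 to 153687730, plus strand), the second de novo enzyme, had 1 region of more than 1 library, at its start (153648402 to 153651000). That region had 2103, 1240 and 2583 bp in WT, 2323, 2156 and 2104 bp in KO and 2501, 1844 and 1394 bp in HxD. The spread within WT was larger than the distance between genotypes, and the differences were 219 ± 373 bp in KO (limma adjusted p = 0.721) and −62.3 ± 373 bp in HxD (0.927). The peak of WT replicate 2 was long, 1240 bp, with a summit recorded 5 bp from its edge at a −log10 q of 2.63 and a fold of 2.39, values given by the authors' peak list. Peaks over 1000 bp with a −log10 q under 3 made up 0.089% to 0.713% of such long peaks per list. Selecting peaks by −log10 q removes that peak, so the equal-length and stricter lists do not hold it.

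Dnmt3l (chromosome 10, 78042287 to 78063622, plus strand), the cofactor of the de novo enzymes, had the smallest p of the 8 genes. Its window had 3453, 2894 and 3274 bp in WT, 2209, 2972 and 3667 bp in KO and 2299, 1649 and 1521 bp in HxD. Every HxD library was below every WT library, as in 20.2% of all genes tested, while KO overlapped both groups. In HxD the mean was 1823 ± 417 bp against 3207 ± 285 bp in WT (SD, n = 3), a difference of −1384 ± 484 bp (SE; limma adjusted p = 0.135). Of all genes, 8.95% had a smaller p in that contrast. KO differed from WT by −258 ± 484 bp (adjusted p = 0.830), a sign that turned after centring, with lists of equal length or without KO replicate 1. KO was 1126 ± 484 bp above HxD (limma adjusted p = 1). The HxD difference stayed below 0 under every alternative, from −1622 to −481 bp on the bp scale, the smallest with lists of equal length (adjusted p = 0.718), and adjusted p was 0.0931 to 0.718 over the alternatives.

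Most of the HxD difference at Dnmt3l lay in 3 regions. The region at start 2 (chromosome 10, 78048773 to 78050487), whose upstream sequence with 4 CpG is printed above, had 1625, 1292 and 1435 bp in WT, 829, 1055 and 1241 bp in KO and 1036, 498 and 1066 bp in HxD. Both mutants were below WT without overlap, as in 27.7% of all regions tested for KO and 29.5% for HxD. The differences were −409 ± 265 bp (SE) in KO (limma adjusted p = 0.315) and −584 ± 265 bp in HxD (adjusted p = 0.169), and both kept their sign under every alternative. By the authors' −log10 q, this peak ranked above 81.1% to 88.8% of the peaks of each WT list, 42.2% to 50.2% of each KO list and 32.1% to 36.8% of each HxD list. Ranks in lists of different lengths do not measure a change. The peaks lay mostly upstream of the start, with 757 ± 342 bp in the 2 kb before it and 392 ± 202 bp in the 2 kb after it (SD over 9 libraries).

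The region nearest Dnmt3l start 1 (chromosome 10, 78042467 to 78044201) began 180 bp past that start and also held a listed start of Aire, the neighbouring gene that encodes an autoimmune regulator. It had 1104, 1062 and 1422 bp in WT, 852, 1016 and 1424 bp in KO and 1262, 1028 and 441 bp in HxD, with the groups overlapping (limma adjusted p = 0.842 and 0.523). Further along, past the gene end, a region at 78067146 to 78068240 had 724, 540 and 0 bp in WT, 0, 747 and 990 bp in KO and none in HxD. The last region touching the window, at 78068469 to 78070384, was in all 9 libraries, lay mostly outside the window and held a start of Icosl, an immune ligand gene. It had 1364, 1316 and 1410 bp in WT, 856, 1795 and 1736 bp in KO and 1504, 1885 and 1072 bp in HxD. The mutants spread to both sides of WT, and the differences were 99 ± 314 bp in KO (limma adjusted p = 0.856) and 124 ± 314 bp in HxD (0.815). With a flank of 2 kb, which leaves out both regions past the gene end, the HxD difference was −984 ± 401 bp (adjusted p = 0.222). Start 3 had a peak of 342 bp in WT replicate 3 alone.

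Of the oxidation genes, Tet2 (chromosome 3, 133463677 to 133545136, minus strand) had 1052, 2410 and 3044 bp in WT, 2341, 2968 and 3780 bp in KO and 3038, 2669 and 1861 bp in HxD. WT replicate 1 was the lowest of the 9, and all groups overlapped. The differences were 861 ± 575 bp (SE) in KO (limma adjusted p = 0.462) and 354 ± 575 bp in HxD (0.806), and without WT replicate 1 they were 303 and −204 bp. All of the mark in more than 1 library lay in 1 region over the CpG-rich start (133542549 to 133546026), with 1052, 2410 and 3044 bp in WT, 2062, 2968 and 3160 bp in KO and 3038, 2669 and 1861 bp in HxD.

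Tet3 (chromosome 6, 83362373 to 83457208, minus strand), the TET gene known from the oocyte and zygote, had 5300, 3301 and 6517 bp in WT, 2856, 5886 and 5600 bp in KO and 5245, 2736 and 3819 bp in HxD. The libraries spread more within a genotype than the genotypes differed. The differences were −259 ± 980 bp (SE) in KO, a sign that turned in 4 of the scaling, threshold and window alternatives, and −1106 ± 980 bp in HxD. Without WT replicate 3 the HxD difference was −367 bp, and at the start alone −9 bp. Neither passed by limma (adjusted p = 0.924 and 0.609). The longer of its 2 constant regions was not at the listed start. It lay 12.8 to 16.4 kb upstream of it, over the upstream end of the gene model (83454439 to 83458037), with 3100, 1886 and 3214 bp in WT, 1704, 3533 and 3363 bp in KO and 3370, 1689 and 2386 bp in HxD. The region at the listed start (83440878 to 83442752), which also held a start of the noncoding gene B230319C09Rik, had 1370, 831 and 1567 bp in WT, 891, 1671 and 1477 bp in KO and 1261, 1047 and 1433 bp in HxD. Another region, 72.4 to 73.7 kb into the gene, was in 6 libraries, with 830, 584 and 765 bp in WT, 0, 682 and 622 bp in KO and 614, 0 and 0 bp in HxD (HxD adjusted p = 0.195).

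Tdg (chromosome 10, 82629814 to 82650799, plus strand), the glycosylase of the oxidised bases, had 2391, 1061 and 2673 bp in WT, 2937, 2083 and 2396 bp in KO and 2021, 1706 and 1718 bp in HxD. WT replicate 2 was the lowest of all 9. The differences were 430 ± 462 bp (SE) in KO (limma adjusted p = 0.674) and −227 ± 462 bp in HxD (0.851). Every KO library was above every HxD library, as in 9.02% of all genes tested (0.482% the other way), with a difference of 657 ± 462 bp (adjusted p = 1). Its region at the start (82628781 to 82631478) had 2152, 1061 and 2673 bp in WT, 2326, 2083 and 2396 bp in KO and 2021, 1706 and 1718 bp in HxD.

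Set against HxD, all 8 genes had more covered bp in KO, with a median difference of 752 bp beside 283 bp over all genes, of which 14220 were higher and 4141 lower. These values share the KO and HxD libraries with the comparisons against WT. No gene window passed in that contrast by limma (665 higher and 27 lower at an unadjusted p under 0.05, of 18466), and of the 8, Dnmt3l was the only one under that unadjusted level, with 3.6% of all genes higher there. The sign turned for Dnmt3b after centring (−111 bp) or without HxD replicate 3, and for Uhrf1 without HxD replicate 2.

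Taking regions rather than windows, 23 of the 56 had a peak in at least 3 libraries and were tested, and none passed in either mutant against WT. Of all 81071 regions tested, 12.6% passed in KO and 9.89% in HxD, 9866 lower and 384 higher in KO and 7955 lower and 59 higher in HxD. After centring these splits were 876 and 1231 in KO and 150 and 101 in HxD, and with lists of equal length 726 and 384 in KO and 0 and 1 in HxD. At an unadjusted p under 0.05 the 23 regions had 2 in KO and 3 in HxD, beside 29.3% and 27.8% of all regions tested. In KO, 11 of the 23 differences were below 0 and 12 above, with a median of 24.7 bp beside −298 bp over all regions, and in HxD 17 were below and 6 above, with a median of −187 bp beside −331 bp. The 9 regions that held a start of their gene had a median of 219 bp in KO and −62.3 bp in HxD, and the 14 that held none −75.2 and −222.5 bp. Groups did not overlap, with the mutant lower, in 3 of 23 regions in KO (13.0%) and 2 of 23 in HxD (8.70%), against 27.7% and 29.5% of all regions. In none did the mutant lie wholly above WT, against 2.39% of all regions in KO and 1.13% in HxD. On simulated KO and WT libraries with 200 changed regions, this test recovered 0% of those that had lost 1000 bp. It recovered 47.5% of those that had lost 2000 bp, which likewise gives no detection limit for the real data.

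Of the 56 regions, 17 (30.4%) had a peak in all 9 libraries, against 13.8% of all regions, and 9 of these 17 held a start of their gene. The 56 were taken from gene windows and all regions from the whole genome, so these shares are not like for like. The 33 of the 56 that were in 1 or 2 libraries measured 232 to 426 bp. Single-library regions numbered 32, of which 11 were from WT replicate 3 and 12 from KO replicate 1. No region of the 56 was in every library of WT and absent from every library of a mutant, or the reverse. The first pattern held for 3.64% of all 186550 regions with KO and 3.55% with HxD, and the reverse for 0.112% and 0.0354%.

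**Figure D4:**
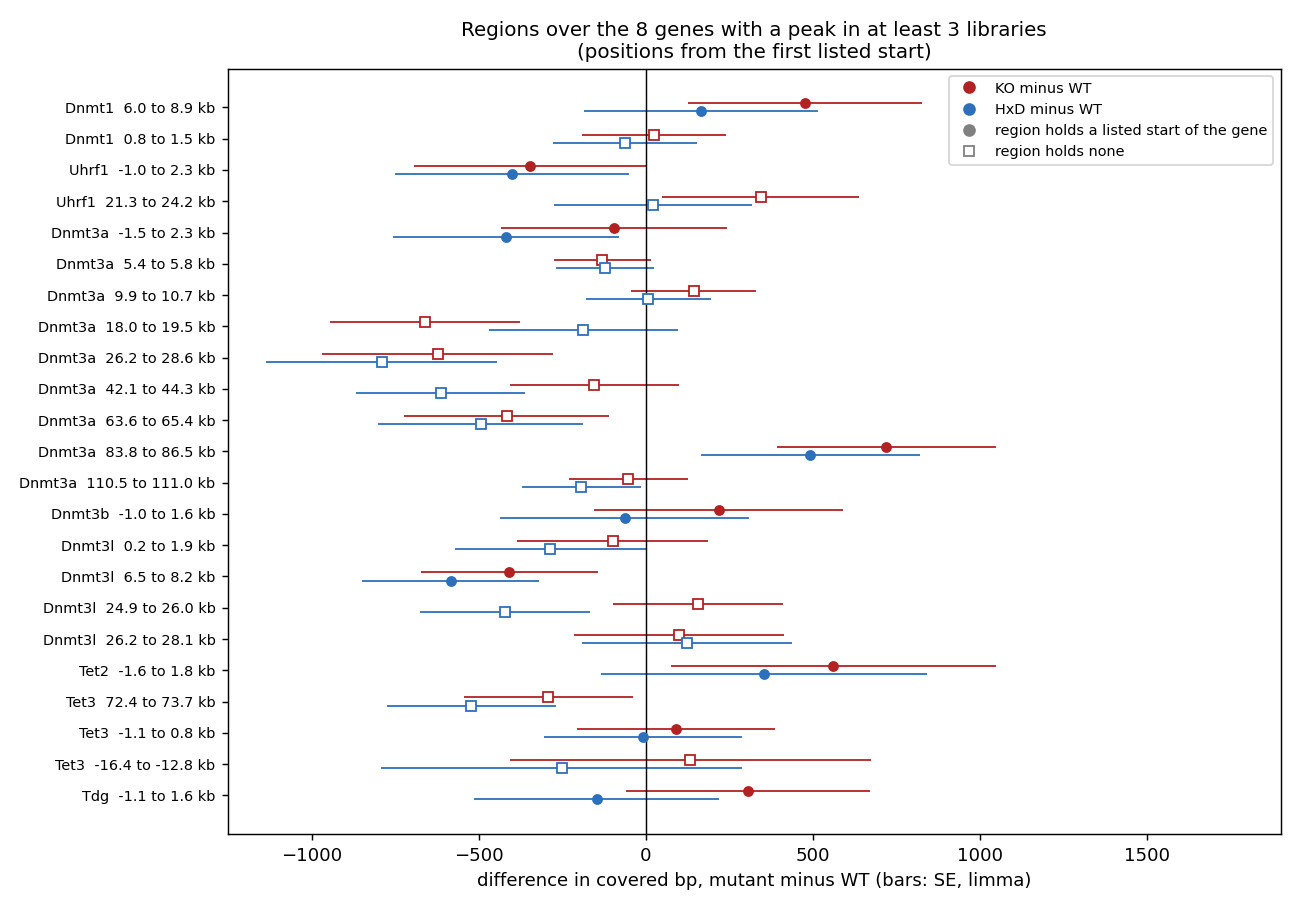
Difference in covered bp from WT (KO red, HxD blue; points are limma estimates, bars SE) for the 23 regions over the 8 genes with a peak in at least 3 libraries, labelled by distance from the first listed start. Filled circles hold a start of the gene and open squares none; in Dnmt3a the region at 83.8 to 86.5 kb lies right of 0 and the 4 regions at 18.0 to 65.4 kb lie left of it in both mutants, none passing the test.

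Around the 8 genes, 42 further genes of the methylation pathway were tested, listed by role: readers of methylation, partners of maintenance, targeting of de novo methylation in the male germ line, oxidation and repair, TET regulators, methyl donor supply and Trdmt1. None passed by limma in any contrast, in a test where 2.11% of all genes passed in KO and 2.93% in HxD. In KO against WT 27 were higher and 15 lower, with a median of 268 bp beside −95.7 bp over all genes, and in HxD against WT 22 were higher and 20 lower, with a median of 27.5 bp beside −370.5 bp. At an unadjusted p under 0.05 there were 4 higher and 1 lower in KO, where 4.58% of all genes were higher and 13.1% lower at that level. In HxD there were 1 higher and 2 lower, beside 0.682% and 18% of all genes. By role, readers were 8 higher and 1 lower in KO and 5 and 4 in HxD, maintenance partners 5 and 0 and then 4 and 1, and oxidation and repair genes 7 and 9 and then 6 and 10. De novo targeting genes were 3 higher and 2 lower in both mutants, TET regulators 2 and 1 in KO and 1 and 2 in HxD, and methyl donor genes 2 and 1 in KO and 3 and 0 in HxD. Trdmt1, an RNA methyltransferase of the same family, was below WT in both (adjusted p = 0.714 and 0.372).

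Genes among the lowest 2 and highest 2 differences of each mutant are described next. Smug1, a uracil-DNA glycosylase, covered 8054 ± 1261 bp in the WT libraries, 5925 ± 1016 bp in the knockout and 5934 ± 1478 bp in HxD (SD, n = 3; limma adjusted p = 0.311 and 0.296 against WT). Piwil4, the nuclear PIWI protein MIWI2 that directs methylation to transposons, had 1681, 1089 and 2293 bp in WT, 0, 0 and 931 bp in KO and 1621, 396 and 1351 bp in HxD. Every KO library was below every WT library, as in 13.6% of all genes tested, with a difference of −1377 ± 394 bp (SE; limma adjusted p = 0.0833). Setd2, the methyltransferase of H3K36me3, was 1349 ± 683 bp (SE) above WT in KO (limma adjusted p = 0.326).

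Parp1, whose product senses DNA breaks during base excision repair, had the smallest p of the 42 in both mutants. It had 500, 909 and 951 bp in WT, 1824, 2034 and 2462 bp in KO and 1337, 1901 and 2050 bp in HxD. Both mutants were above WT without overlap, as in 6.6% of all genes for KO and 2.05% for HxD. The differences were 1320 ± 342 bp (SE) in KO (limma adjusted p = 0.0598) and 976 ± 342 bp in HxD (adjusted p = 0.135), so neither passed over all genes.

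**Figure D5:**
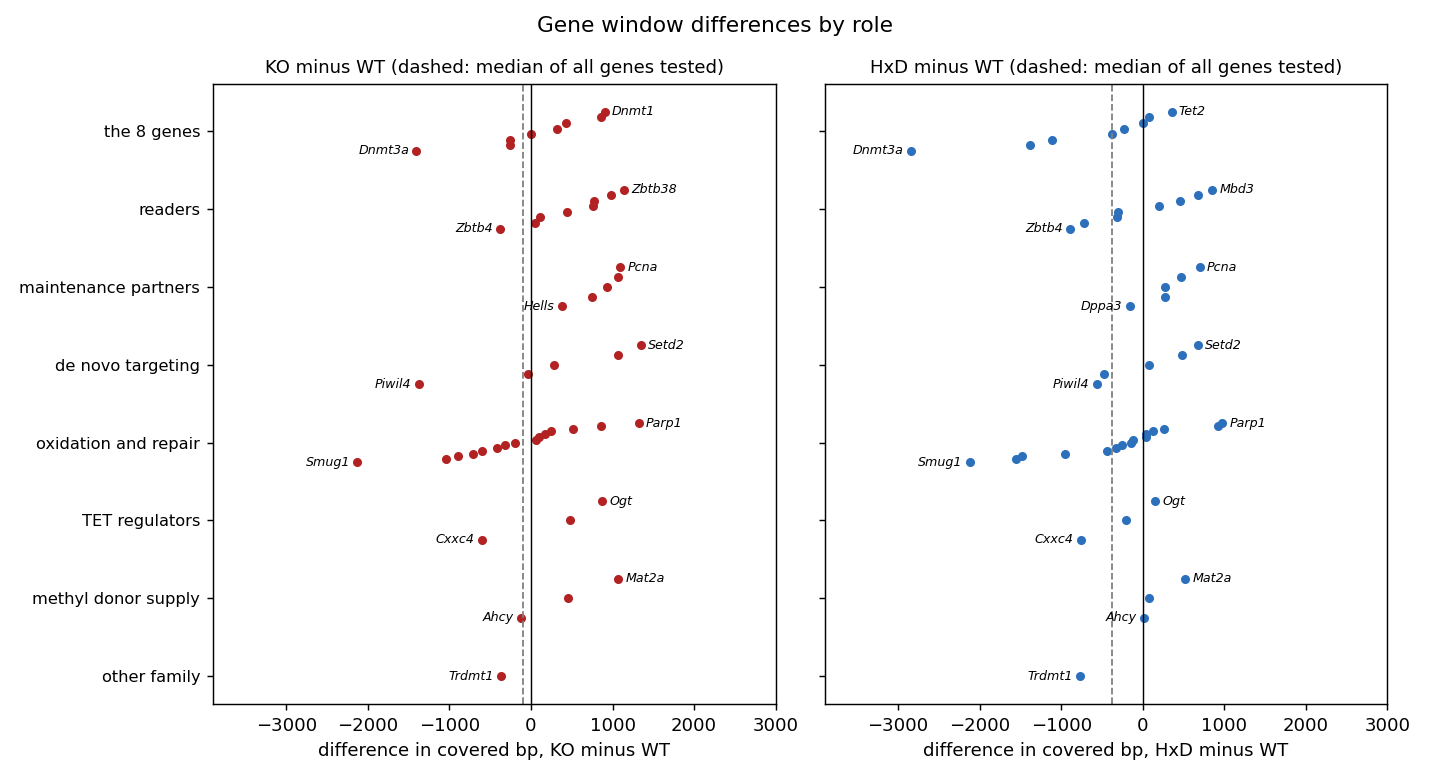
Difference in covered bp of the gene window from WT in KO (left) and HxD (right), each point 1 gene, for the 8 genes and 40 of the 42 pathway genes grouped by role, with the lowest and highest shown of each role named and the median of all 18466 genes tested as a dashed line. Of the 8 genes, Dnmt3a is lowest in both mutants (−1405 and −2845 bp), and Dnmt1 is highest in KO and Tet2 in HxD; no gene shown passed the test.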

How the data were processed

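The authors deposited 1 narrow peak list per H3K4me3 library, so peaks were called per sample. Per the submitters' processing notes, MACS2 2.1.0, Bowtie2 2.5.0 and deepTools 3.5.1 were used with SAMtools 1.16.1, Trim Galore and bedtools 2.27.1 on mm10. How each tool was used, and which control the peak calls had, was not given in the sources used here. Columns the authors deposited are a score, a linear ratio (fold enrichment at the summit) and the −log10 of p and of q. The smallest deposited −log10 q was 2.00 to 2.02 in every list. The authors' values served to describe, rank and filter peaks within a list. No score was used.

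Covered bp per gene window and per merged region were computed here with Python 3.11.15, numpy 2.4.6 and pandas 2.3.3, and figures with matplotlib 3.10.9. Features with a peak in at least 3 libraries were tested with limma 3.58.1, run in R 4.3.3 (covered bp of all 9 libraries in 1 fit, no covariate, eBayes with trend, Benjamini-Hochberg adjustment over all features, threshold 0.05), and the script was tested on simulated data. All 8 genes and 23 of their 56 regions passed that filter. Genes, starts and upstream sequences are from RefSeq GRCm38.p6, and 4392 coding genes had no listed start. No list was a copy of another: a pair shared at most 6 identical peaks.

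The members and all gene lists were chosen with earlier results of these data known. All 8 genes were described whatever their values, with regions given by value if at a start, covering 1000 bp or more in a group mean or separating genotypes. Piwil4 is listed under both of its names, and Dnmt3c had no match in the gene table. The pathway genes named are those among the 2 lowest and 2 highest differences of each mutant, and 2 genes picked by this rule are not reported here by value, though they remain in the counts. The alternatives were lists of equal length (49624 peaks each), −log10 q of at least 5, centring, no filter, log2(bp + 200), a flank of 2 kb, the starts alone, a minimum overlap of 200 bp, a replicate block and leaving out each library.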

Additional observations from a re-analysis of the deposited data

How the results depend on the processing

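The alternatives were followed for 31 differences, those of the 8 gene windows in the 3 contrasts and 7 region results against WT. The 7 were picked from these same data for an unadjusted limma p under 0.05 or groups that did not overlap. The other regions described above are not among them. None of the 31 passed the test under any alternative. Of 520 such values, 487 kept their direction and 33 turned, 17 of these on leaving out 1 library, in 14 of the 31 results. The Dnmt1 and Tet2 windows in KO, the Dnmt3l and Tet3 windows in HxD and the 7 region results did not turn, but several moved by more than 1.5 times. That the 7 region results kept their direction is partly fixed by how they were picked. Leaving out 1 library gave 539 to 1130 bp for Dnmt1 (lowest without KO replicate 3) and 303 to 1299 bp for Tet2 in KO (WT replicates 1 and 3, and 486 bp without KO replicate 3). In HxD it gave −1975 to −367 bp for Tet3, with −1762 bp without HxD replicate 1 and −507 bp without HxD replicate 2 between these values of WT replicates 2 and 3. Dnmt3a ranged over −2338 to −119 bp in KO (WT replicates 2 and 3) and −3925 to −1560 bp in HxD (HxD replicate 1 and WT replicate 3). Among regions, Dnmt3a at 26.2 to 28.6 kb in HxD was −524 bp without WT replicate 3 and the internal start in KO 462 bp without WT replicate 2. After centring, the regions at the Uhrf1 starts and Dnmt3l start 2 were at −65.7 and −130 bp in KO. In KO against HxD leaving out 1 library gave 546 to 2520 bp for Dnmt3a, 249 to 1810 bp for Tet3, 436 to 1393 bp for Dnmt1, 132 to 851 bp for Tet2, 767.5 to 1496.5 bp for Dnmt3l and 424.5 to 851.5 bp for Tdg. The cause of each turn was not tested.

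In KO against WT, lists of equal length gave 227 bp for Dnmt3l, 669 bp for Uhrf1 and 439 bp for Tet3, and stricter peaks 439 bp for Tet3. Centring gave 39.3 bp for Dnmt3l, 296 bp for Uhrf1 and 38.3 bp for Tet3, and the starts alone 805 bp for Dnmt3a and 90.3 bp for Tet3. Leaving out 1 library gave −617 to 113 bp for Dnmt3l (above 0 without KO replicate 1), −176 to 206 bp for Uhrf1 and −1128 to 704 bp for Tet3 (both above 0 without WT replicate 3 or KO replicate 1). It gave −60 to 746 bp for Tdg and −47.7 to 624 bp for Dnmt3b (both below 0 without WT replicate 2). In HxD against WT, centring gave 427 bp for Tdg and 275 bp for Uhrf1, lists of equal length 292 bp for Uhrf1, the starts alone 74 bp for Dnmt3a and −62.3 bp for Dnmt3b, and the log2 scale −0.0821 for Dnmt1. Leaving out 1 library gave −717 to 89 bp for Tdg (turned without WT replicate 3), −894 to 40.7 bp for Uhrf1 (HxD replicate 2) and −204 to 792 bp for Tet2 (WT replicate 1). For Dnmt3b it gave −356 to 403 bp (WT replicate 2, HxD replicate 1) and for Dnmt1 −486 to 470.3 bp (WT replicates 1 and 3, HxD replicate 1). In KO against HxD, centring gave −111 bp for Dnmt3b, and leaving out 1 library −82.7 to 676 bp for Dnmt3b (HxD replicate 3) and −42 to 893 bp for Uhrf1 (HxD replicate 2).

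The counts called over all genes and regions, among which no window of the 8 genes was called, moved more. Gene windows lower and higher in KO were 371 and 19, then 159 and 368 with lists of equal length, 207 and 6 with stricter peaks, 34 and 5 for starts alone, 749 and 836 after centring and 5 and 2 on the log2 scale. In HxD they were 537 and 4, then 36 and 20 with lists of equal length, 218 and 1 with stricter peaks, 336 and 2 with a 2 kb flank, 0 and 0 for starts alone, 29 and 2 on the log2 scale, and 423 higher after centring. Without 1 library they ranged over 59 to 535 and 0 to 25 in KO and 34 to 856 and 0 to 5 in HxD. Regions in KO were 9866 and 384, then 726 lower with lists of equal length, 876 and 1231 after centring, 6083 lower with no filter and 6471 and 241 on the log2 scale. In HxD they were 7955 and 59, then 0 and 1 with lists of equal length, 150 and 101 after centring and 4532 lower with no filter. Without 1 library they ranged over 0 to 9825 and 0 to 312 in KO, with 0 without KO replicate 1 or 3, and 0 to 9042 and 0 to 71 in HxD, with 0 without any 1 HxD library.

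The replicate numbers were shared by the genotypes, and the labels do not say whether libraries of the same number belong together. Of 9 same-number pairs 3 had a correlation of deviations from the group means above 0.1, in a range of −0.632 to 0.406. In 2 of 9 libraries the best correlation was with their own number. With 3 libraries per mean and lists of different lengths, these correlations cannot decide whether the numbers pair the libraries. With the replicate block the calls were 304 lower and 10 higher gene windows in KO, 469 and 2 in HxD, and 5853 and 155 regions in KO and 3591 and 15 in HxD. The replicate block changed no call among the 8 genes, of which none passed.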

Other observations

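Some long peaks over the 8 genes had recorded summits that do not stand for the whole peak. The peak of Dnmt3b in WT replicate 2 has its summit 5 bp from an edge, and the peak near Dnmt3l start 1 in WT replicate 1, 1104 bp long, has its summit 21 bp from an edge with a −log10 q of 2.04 and a fold of 2.24. In the whole lists, 29 to 211 peaks over 1000 bp per library had a −log10 q under 3, with the most in WT replicate 2. These values are the authors' own, and lists selected on −log10 q leave such peaks out.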
